A study of Mus musculus with 8 samples.

Results

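This report describes 7 chemokine receptor genes of blood myeloid and red cells, Cxcr1, Cxcr2, Cxcr4, Ccr1, Ccr2, Ccrl2 and Ackr1, in mouse peripheral blood after acute restraint. They were picked by gene symbol, and 7 of the 7 were found among the 21878 symbols of the count table. Whole blood was taken from wild-type female C57BL/6 mice aged 6 to 8 weeks. The stress group (4 samples) was held in a ventilated tube for 6 hours, and the control group (4 samples) stayed in its cage over the same time. Both groups went without food and water, so the groups share the fast and differ in the restraint. The labels number the replicates within each group and do not say whether a library came from a single animal, so the p-values measure the spread between these samples.

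Chemokine receptors are membrane proteins that couple to Gi proteins and steer leukocytes along gradients of small secreted proteins. In the neutrophil, Cxcr2 and Cxcr4 pull in opposite directions: Cxcr4 holds the cell in the bone marrow through Cxcl12, and Cxcr2 draws it into the blood and on to inflamed tissue. Ccr2 has the matching role for classical monocytes, whose exit from the marrow depends on Ccl2 and Ccl7. Ccr1 answers Ccl3, Ccl5, Ccl6 and Ccl9 on monocytes and neutrophils, whereas Ccrl2 and Ackr1 bind their ligands without G protein signalling.

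The libraries held 31471145 to 39014775 (control) and 25978683 to 29655725 (stress) counts. Haemoglobin transcripts took 51.9% to 63.8% of the control counts and 61.2% to 75.5% of the stress counts, which left 11409246 to 18771951 and 6352711 to 11007593 other counts, the fewest in stress replicate 3. Levels are given as CPM, counts relative to library size, with sizes scaled by TMM, a method that takes most genes as unchanged, and log2 fold changes are on that scale unless total counts are named. Following the study's methods, a gene was called where its adjusted p was below 0.01 and its log2 fold change exceeded 1 in size. Of the counts from 1 to 20 in the whole table, 67.4% to 70.7% were even numbers, which is more than single reads counted one by one would give, and no counting intervals are given.

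The promoters of the 2 receptors whose groups separated upward, Cxcr2 and Ccr1, and of Cxcr4, which did not move with them, are shown to compare what lies upstream of each gene. The stretches are from RefSeq on GRCm38.p6, read 5′ to 3′ on the gene's strand and ending before the first annotated exon base. They lie at chr1:74153744-74153988 on the plus strand for Cxcr2, at chr9:123968693-123968942 on the minus strand for Ccr1 and at chr1:128592300-128592549 on the minus strand for Cxcr4. Capitals mark the motifs searched on both strands: GAGGAA (the core bound by PU.1, a myeloid transcription factor), AGAACA (an arm of the glucocorticoid receptor element), TATAAA (the TATA box) and GGGCGG (the GC box bound by Sp1).
Cxcr2: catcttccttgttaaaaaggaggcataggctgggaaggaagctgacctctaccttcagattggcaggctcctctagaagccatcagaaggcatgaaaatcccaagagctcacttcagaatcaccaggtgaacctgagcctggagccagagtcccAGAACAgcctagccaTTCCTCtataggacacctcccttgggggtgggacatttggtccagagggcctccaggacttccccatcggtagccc
Ccr1: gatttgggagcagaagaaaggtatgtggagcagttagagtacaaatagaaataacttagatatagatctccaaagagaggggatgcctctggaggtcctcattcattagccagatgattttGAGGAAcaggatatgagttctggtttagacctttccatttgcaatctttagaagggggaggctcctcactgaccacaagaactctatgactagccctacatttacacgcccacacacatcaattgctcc
Cxcr4: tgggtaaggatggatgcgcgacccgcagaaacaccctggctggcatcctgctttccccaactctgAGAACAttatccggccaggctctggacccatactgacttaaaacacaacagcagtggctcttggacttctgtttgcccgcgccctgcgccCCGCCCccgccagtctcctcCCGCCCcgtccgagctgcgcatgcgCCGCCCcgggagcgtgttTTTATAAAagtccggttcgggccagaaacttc

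The Cxcr4 stretch held 3 GC boxes and an overlapping pair of TATA box matches on opposite strands, and 61.2% of its bases were G or C. The Cxcr2 and Ccr1 stretches held neither motif, with 54.3% and 43.6% G or C. Each of these held 1 PU.1 core, and Cxcr2 and Cxcr4 each held 1 AGAACA, at positions -91 and -185 counted back from the end of the printed stretch. Over 27025 mouse promoter windows of 300 bases, 28.3% held the PU.1 core, 19.0% AGAACA, 14.2% the TATA box and 35.9% the GC box. These windows run from 250 bases before the start to 50 after it, so they are longer than the printed stretches. In its window of 300 bases Cxcr2 held 2 PU.1 cores, while Ccr1 and Cxcr4 kept the counts given. In such windows Ccr2, which was also called higher, and Ackr1 held none of the motifs. Cxcr1 held 1 AGAACA and 1 GC box, and Ccrl2 held 1 of these in each of its windows. Such matches are letters and do not show binding, and the motifs were chosen after the values and the sequences of the genes were seen.

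Compared with the control group, 3 of the 7 receptor transcripts, Cxcr2, Ccr1 and Ccr2, rose in the stress group and 0 fell. Among all 11718 genes tested, 1.69% were called higher and 0.0171% called lower (edgeR's quasi-likelihood test), and the genes of this family were proposed with earlier results known. On the TMM scale the groups did not overlap for 2 of the 7, Cxcr2 and Ccr1, with the stress samples on top. That was so for 11.1% of all tested genes. A change in the number of cells of a type and a change in RNA per cell cannot be told apart in whole blood. The most abundant of the 7, Cxcr4, was not called, while Cxcr1, Ccrl2 and Ackr1, at 1.95, 2.04 and 2.58 times the control level, missed the threshold.

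**Figure D1:**
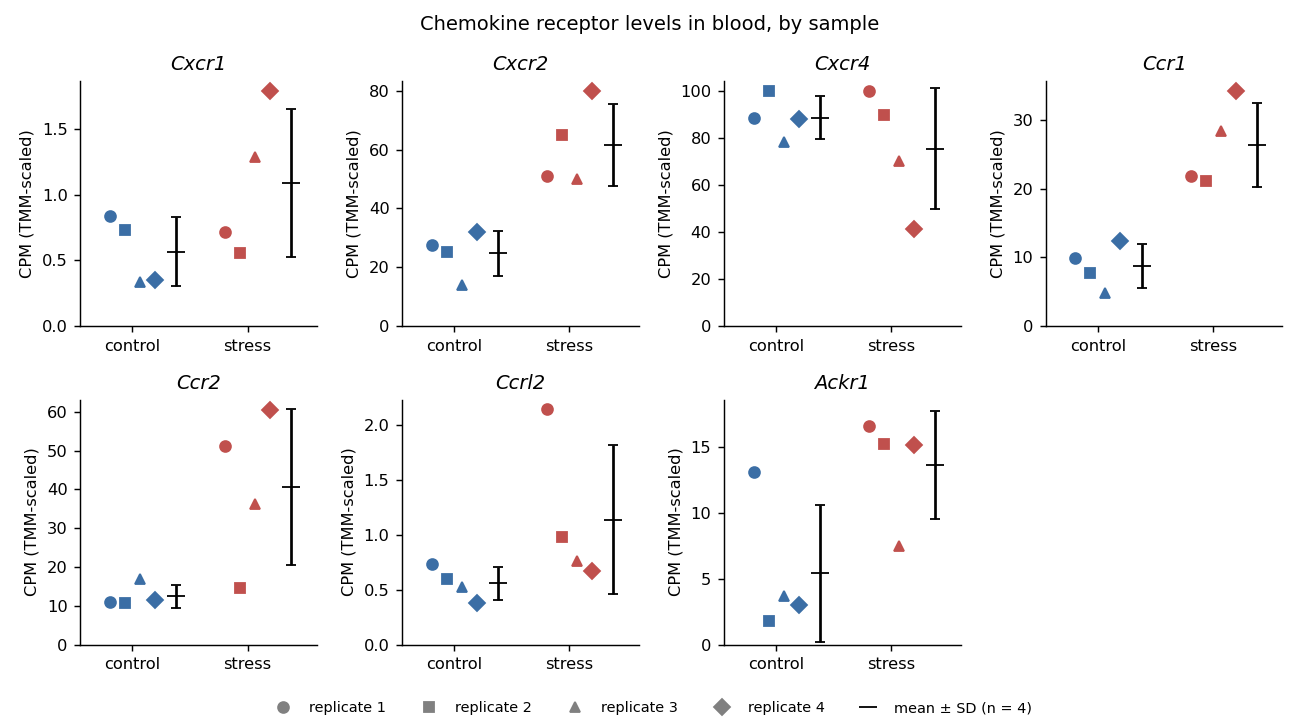
Level of each receptor transcript in CPM on TMM-scaled libraries (vertical axes start at 0 and differ between panels) in control (blue) and stress (red) samples, with the mean ± SD beside each group. The points of Cxcr2 and Ccr1 do not overlap between groups, Cxcr4 spreads from 41.4 to 99.9 CPM among the stress samples, and 1 Ackr1 control at 13.1 CPM sits with the stress group.

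Cxcr2 (chromosome 1, 74153989 to 74161246, GRCm38 with GENCODE M21) encodes the main receptor of mouse neutrophils for Cxcl1, Cxcl2 and Cxcl5. It stood at 27.6, 25.3, 14.1 and 32.0 CPM in control replicates 1 to 4 and at 51.1, 65.1, 50.02 and 80.0 CPM in stress replicates 1 to 4. On the TMM scale the lowest stress sample was well above the highest control. The mean went from 24.7 ± 7.64 to 61.6 ± 14.1 CPM (SD, n = 4 each), and the log2 fold change was 1.32 (standard error, SE, 0.23, adjusted p = 0.00375), or 2.50-fold with a 95% interval from 1.76 to 3.54. Without control replicate 2, stress replicate 2 or stress replicate 3 the adjusted p was 0.0116, 0.0161 and 0.0269, above the threshold of 0.01, while the log2 fold change stayed between 1.12 and 1.49 in the 8 fits that left out 1 sample.

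Cxcr1 lies beside Cxcr2 on chromosome 1 (74191785 to 74194631) and encodes the related receptor, which is scarce in mouse blood. It had 31, 38, 23 and 11 counts in the control samples and 16, 12, 17 and 56 in the stress samples. The corresponding levels were 0.842, 0.735, 0.332 and 0.347 CPM against 0.714, 0.557, 1.29 and 1.79 CPM. Stress replicates 3 and 4 exceeded every control and stress replicates 1 and 2 lay within the control range. The log2 fold change of 0.96 (SE 0.46, adjusted p = 0.168) had a 95% interval from -0.02 to 1.94, so a change of the size seen for Cxcr2 was within the error of this low transcript. Without stress replicate 4 it was 0.55, and with total counts alone 0.26.

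Ccr1 (chromosome 9, 123962124 to 123968692) encodes a receptor for inflammatory CC chemokines on monocytes and neutrophils. Its control levels were 9.97, 7.78, 4.86 and 12.4 CPM, and its stress levels 21.9, 21.1, 28.4 and 34.2 CPM. Every stress sample was above every control, as for Cxcr2, and control replicate 3 was the lowest of the 8 samples for both genes. The mean rose from 8.75 ± 3.21 to 26.4 ± 6.16 CPM (SD, n = 4 each), and the log2 fold change was 1.61 (SE 0.25, adjusted p = 0.00244), or 3.05-fold with an interval from 2.08 to 4.47. With all samples Ccr1 had the smallest p of the 7 genes, and 0.572% of all tested genes had a larger log2 fold change. Without stress replicate 3 its adjusted p was 0.0322.

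Ccr2, the Ccl2 receptor of classical monocytes, lies in the same chromosome 9 cluster at 124101950 to 124113557. Its levels were 10.8, 10.7, 16.9 and 11.5 CPM in the control samples and 51.1, 14.6, 36.1 and 60.5 CPM in the stress samples. Stress replicates 1, 3 and 4 were far above the controls, but stress replicate 2 lay below control replicate 3, so the groups overlapped. The mean rose from 12.5 ± 2.96 to 40.6 ± 20.03 CPM (SD, n = 4 each), with the largest log2 fold change of the 7 genes, 1.70 (SE 0.34, adjusted p = 0.00745), or 3.25-fold with an interval from 1.95 to 5.43. Its call was the least stable: leaving out any sample other than stress replicate 2 put the adjusted p between 0.0135 and 0.0646 (0.0646 without stress replicate 3), and leaving out stress replicate 2 gave 0.000669. The log2 fold change was 1.44 to 2.01 in those fits.

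The classical monocyte markers were also lowest in stress replicate 2 among the stress samples. Their summed level over 12 genes was 951.2 CPM there and 1342.5 to 1501 CPM in the other stress samples, against 603.6 to 732.4 CPM in the control samples. Of these 12 markers 8 were higher and 0 lower at an adjusted p below 0.05, against 10.4% and 3.69% of all tested genes. The median over the 12 was 1.18 on the log2 scale. Chil3 and F13a1 had the smallest p-values, with log2 fold changes of 2.89 and 1.27. Their part in the change of Ccr2 was not tested beyond the ratios given further on.

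Cxcr4 (chromosome 1, 128588199 to 128592293) is carried by B cells, T cells, monocytes, neutrophils and platelets. Its levels were 88.2, 99.97, 78.0 and 88.0 CPM in the control samples and 99.9, 89.7, 70.3 and 41.4 CPM in the stress samples. The controls lay close together, while the stress samples spread over more than the control range, from replicate 1 at the top to replicate 4 at the bottom. The mean was 88.5 ± 8.98 against 75.3 ± 25.7 CPM (SD, n = 4 each), and the log2 fold change was -0.23 (SE 0.22, adjusted p = 0.502) with an interval from -0.71 to 0.24. Stress replicate 4 was the lowest of the 8 samples for Cxcr4 and the highest for Cxcr1, Cxcr2, Ccr1 and Ccr2. Without it the log2 fold change of Cxcr4 was -0.03.

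Ccrl2 (chromosome 9, 111054486 to 111057519) encodes an atypical receptor that binds chemerin and presents it to neighbouring cells. It had 27, 31, 36 and 12 counts in the control samples and 48, 21, 10 and 21 in the stress samples, or 0.734, 0.600, 0.520 and 0.378 CPM against 2.14, 0.974, 0.759 and 0.672 CPM. Stress replicate 1 stood apart at the top, and stress replicate 4 lay within the control range. The log2 fold change was 1.03 (SE 0.42, adjusted p = 0.115), and without stress replicate 1 it was 0.54.

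Ackr1 (chromosome 1, 173331886 to 173333750), the Duffy antigen, binds many chemokines on red cells and the endothelium of small veins. Its control levels were 13.1, 1.82, 3.69 and 2.96 CPM and its stress levels 16.5, 15.2, 7.51 and 15.1 CPM. Control replicate 1 was far above the other controls and above stress replicate 3, so the groups overlapped. The mean was 5.40 ± 5.21 against 13.6 ± 4.11 CPM (SD, n = 4 each), and the log2 fold change was 1.37 (SE 0.50, adjusted p = 0.0850), which missed the threshold. Without control replicate 1 it was 2.27 with an adjusted p of 0.00201, which passed. An exon of Ackr1 overlaps one of Cadm3 on the same strand, and Cadm3 itself had 3 to 15 counts per sample, against 94 to 483 for Ackr1.

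Of 10 erythroid markers 9 were in the table and 8 could be tested. The 9 summed to 9110 to 25299 CPM in the control samples and 19317 to 41734 CPM in the stress samples. Most of each sum was Alas2, with means of 16114 (control) and 29033 CPM (stress). Of the 8, 1 (Epor, the erythropoietin receptor) was higher at an adjusted p below 0.05 and 0 were lower, near the 10.4% and 3.69% of all tested genes. Their median was 0.94 on the log2 scale. Ackr1 had a larger log2 fold change than each of the 8. Control replicate 1, where Ackr1 was highest among the controls, had 19760 CPM of erythroid markers, less than the 25299 CPM of control replicate 4. Of the 8 endothelial markers 6 were tested and 5 were higher, with Cdh5 not past the test and Tek and Cldn5 at 8 counts or fewer in every sample. Selp, Vwf and Pecam1 on that list are also made by platelets, and the part of these cells in the level of Ackr1 was not tested.

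To compare levels between genes, CPM was divided by the length of each gene's exons in kilobases, joined over all its annotated transcripts. That length was 6760 bases for Ccr2 and 2833 for Ccr1, and it sets their order. In CPM the mean of Ccr2 was above that of Ccr1, at 12.5 against 8.75 (control) and 40.6 against 26.4 (stress). On this scale Cxcr4 was highest in the control group (49.0 ± 4.96 CPM per kb), followed by Cxcr2 (8.12 ± 2.51), Ackr1 (3.84 ± 3.71), Ccr1 (3.09 ± 1.13), Ccr2 (1.85 ± 0.437), Cxcr1 (0.378 ± 0.176) and Ccrl2 (0.215 ± 0.0572). The stress group kept that order, at 41.7 ± 14.2 for Cxcr4, 20.2 ± 4.62 for Cxcr2, 9.68 ± 2.93 for Ackr1, 9.31 ± 2.17 for Ccr1, 6.00 ± 2.96 for Ccr2, 0.730 ± 0.379 for Cxcr1 and 0.438 ± 0.262 CPM per kb for Ccrl2. In the control group the ranges of Cxcr2, Ackr1, Ccr1 and Ccr2 overlapped from each to the next, as did those of Cxcr1 and Ccrl2, while Cxcr4 stood clear above and Ccr2 clear of Cxcr1. The place of Ackr1 above Ccr1 rested on control replicate 1 (9.34 CPM per kb), since the other controls had 1.29 to 2.62. In the stress group Cxcr4 (22.9 to 55.3) overlapped Cxcr2 (16.4 to 26.2), Cxcr2 stood clear of Ackr1 (5.35 to 11.8), and Ackr1 overlapped Ccr1 (7.43 to 12.1).

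As a share of the summed level per kilobase of the 7 genes, Cxcr4 made up 74.0% ± 5.86 of the control total and 46.8% ± 12.8 under stress (SD, n = 4). Cxcr2 went from 12.03% ± 2.92 to 23.2% ± 6.34 and Ccr1 from 4.58% ± 1.43 to 10.8% ± 3.50. The Cxcr4 shares ran from 66.7% to 79.1% in the control samples and from 27.8% to 55.0% in the stress samples, without overlap. A share falls when the other members rise, and the level of Cxcr4 itself overlapped between the groups (adjusted p = 0.502). The Cxcr2 shares did not overlap either, at 8.39% to 15.5% and 16.7% to 31.8%.

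**Figure D2:**
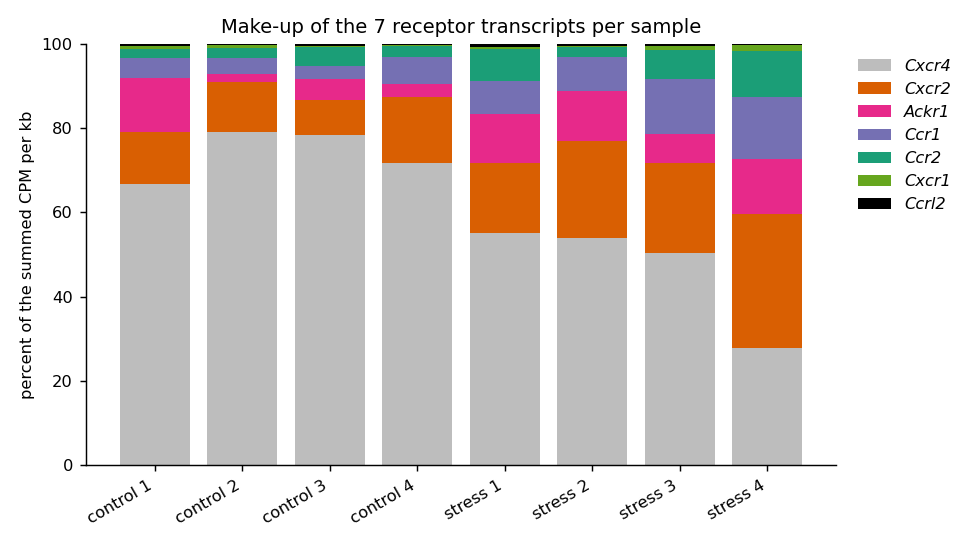
Share of each receptor in the summed CPM per kb of the 7 genes (percent, stacked to 100) in each of the 8 samples. Cxcr4 fills 66.7% to 79.1% of each control bar and 27.8% to 55.0% of each stress bar, and the Cxcr2 band is wider in every stress sample than in any control.

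A ratio of 2 transcripts within a sample is untouched by library scaling, apart from the prior count. The log2 ratio of Cxcr2 to Cxcr4 was -1.89 ± 0.44 for controls (-2.47 to -1.46) and -0.24 ± 0.83 after restraint (-0.97 to 0.95), without overlap. The difference of 1.65 had an exact two-sided permutation p of 0.0286, the smallest that 4 against 4 samples allow, and 0.114 after Benjamini-Hochberg adjustment over the 12 ratios examined. Cxcr4 is also carried by B cells and T cells, so in whole blood this is not a ratio within neutrophils. Ccr2 against Cx3cr1, the receptors that mark classical and patrolling monocytes, gave 0.80 ± 0.56 for controls and 2.10 ± 0.30 after restraint. That difference of 1.31 also came without overlap (exact permutation p = 0.0286, adjusted 0.114). Cx3cr1 itself had a log2 fold change of 0.34 (edgeR, adjusted p = 0.436), against 1.70 for Ccr2. This too is a ratio in whole blood, and which cells carried Cx3cr1 was not tested. None of the 12 ratios passed an adjusted p of 0.05, and 3 had an unadjusted p below it. After adjustment the smallest possible p falls below 0.05 only where most of the 12 ratios reach it. Missing 0.05 therefore says little about a single ratio.

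Each receptor was also set against the mean of marker genes of cells that carry it. Relative to 15 neutrophil markers, Cxcr2 had log2 ratios of 2.24 ± 0.34 (control) and 2.27 ± 0.39 (stress), a difference of 0.02 (exact permutation p = 0.971) that is smaller than either SD. Its sign turned with the settings, to -0.0119 with a prior count of 0.5 and -0.31 against the median marker. Within the 15 markers, 8 had a larger log2 fold change than Cxcr2. For Ccr1 the same ratio was higher by 0.31 (exact permutation p = 0.114) and by -0.0192 against the median marker.

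The third ratio without overlap was Cxcr4 against the neutrophil markers. It went from 4.14 ± 0.31 to 2.51 ± 0.79, a difference of -1.63 (exact permutation p = 0.0286, adjusted 0.114), and all 15 markers had a larger log2 fold change than Cxcr4. Against 10 B cell markers the ratio of Cxcr4 differed by 0.19 (exact permutation p = 0.6) and against 10 T cell markers by -0.31 (exact permutation p = 0.343), both within the spread of the stress samples. Single libraries moved both: the B cell value was 0.00374 without stress replicate 2 and 0.51 without stress replicate 4, and the T cell value -0.55 without stress replicate 1 and -0.09 without stress replicate 4. Ccr2 against 12 classical monocyte markers differed by 0.29 (exact permutation p = 0.343), by 0.62 against the median marker, and by 0.17 (without stress replicate 4) to 0.50 (without stress replicate 2) with 1 sample left out. Ccr1 against the same markers differed by 0.39 (exact permutation p = 0.371), by 0.72 against the median marker, and by 0.10 (without control replicate 3) to 0.60 (without stress replicate 1). Ackr1 against 8 erythroid markers differed by 0.67 (exact permutation p = 0.343), with 1.11 without control replicate 1 and 0.32 without control replicate 4. A p that misses the threshold does not show that these ratios were alike.

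**Figure D3:**
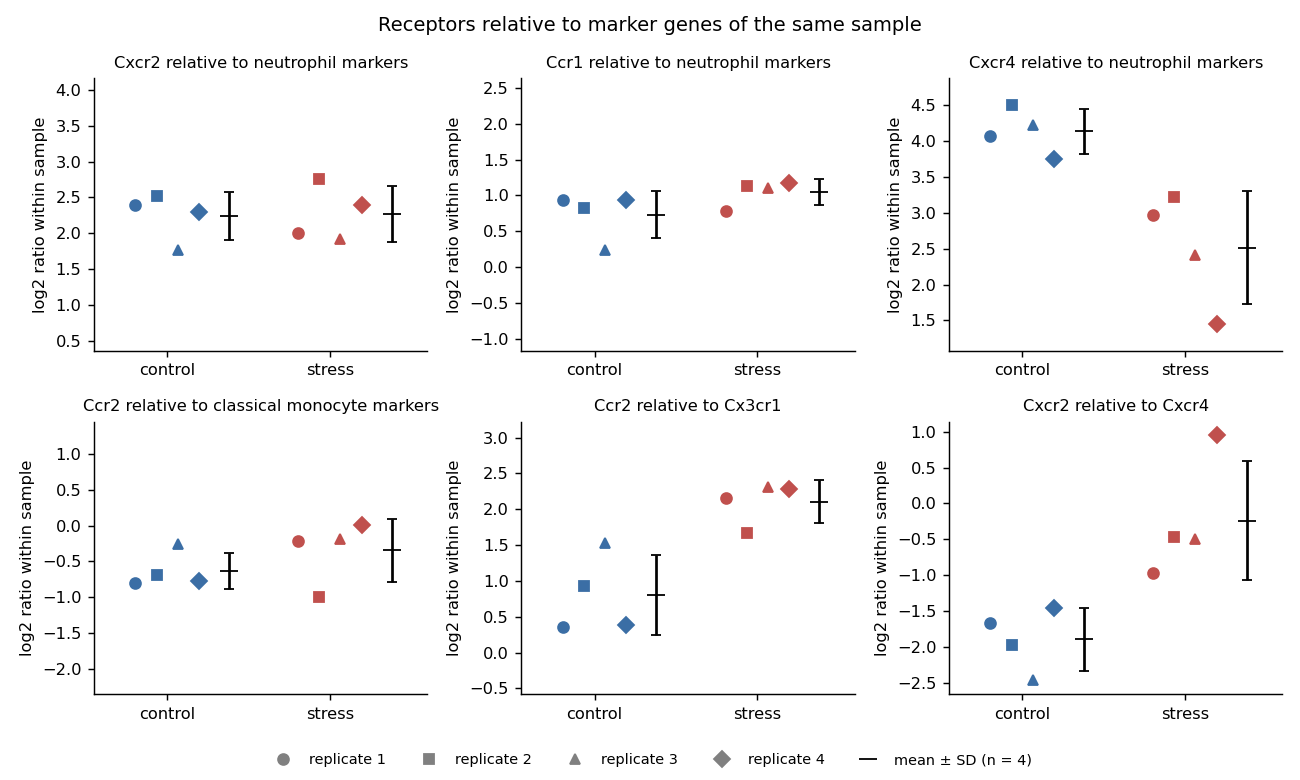
Log2 ratios of receptor transcripts to marker panels or to each other in control (blue) and stress (red) samples, one point per sample. The groups separate for Cxcr4 against the neutrophil markers and for Cxcr2 against Cxcr4, and lie over each other for Cxcr2 against the neutrophil markers (2.24 and 2.27 on average).

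The neutrophil and B cell panels themselves moved. Of 15 neutrophil markers 11 were higher and 0 lower at an adjusted p below 0.05, where 10.4% of all tested genes were higher and 3.69% lower, and the summed level of the 16 listed, with the untested Camp, was 192.9 to 368.6 CPM in the control samples and 558.1 to 844.6 CPM in the stress samples. Of 10 B cell markers 0 were higher and 6 lower (median -0.49 on the log2 scale), and of 10 T cell markers 0 passed in either direction (edgeR). Beyond the ratios above, the part of these cells in the levels of Cxcr2, Ccr1 and Cxcr4 was not tested.

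Scaling by total counts moved all 7 receptors downward. With total counts alone in place of TMM, the median over all tested genes moved from -0.03 to -0.82 on the log2 scale, and Cxcr4 moved with it from -0.23 to -1.08 (adjusted p = 0.0108). On this scale Cxcr4 was 119.3 ± 28.0 against 56.6 ± 19.9 CPM without overlap (exact permutation p = 0.0286). Cxcr2 lost its separation, at 24.9 to 37.2 CPM (control) and 25.4 to 88.0 CPM (stress, exact permutation p = 0.2). Its lowest stress sample was replicate 3, which had the smallest TMM factor, 0.507. Ccr1 stayed without overlap (exact permutation p = 0.0286). The log2 fold changes of Cxcr2, Ccr1 and Ccr2 stayed above 0, at 0.67, 0.94 and 0.96, with adjusted p-values of 0.0834, 0.0220 and 0.0212, and none was called. Cxcr1, Ccrl2 and Ackr1 were at 0.26, 0.22 and 0.70.

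**Figure D4:**
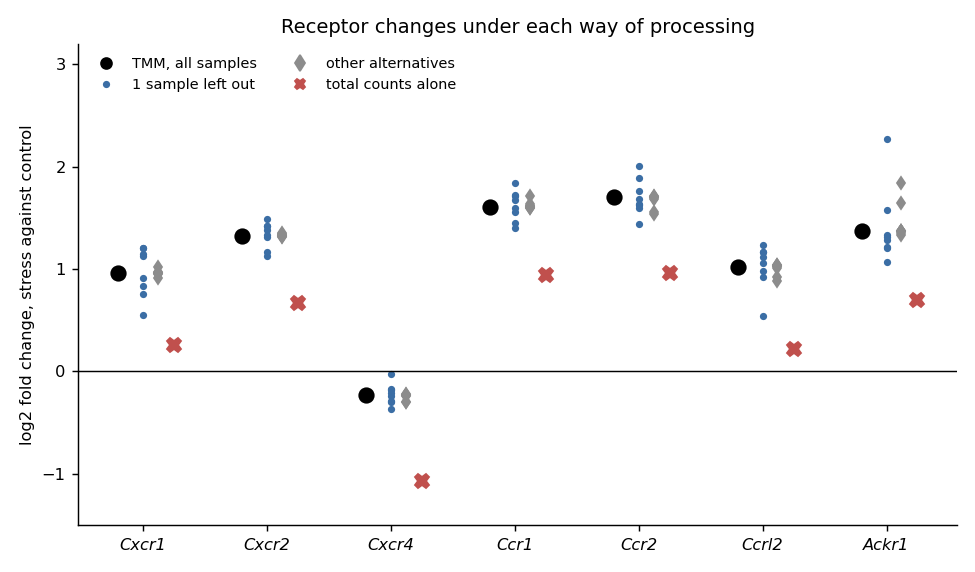
Log2 fold change (stress over control) of each receptor under each processing alternative, with the TMM value marked. Cxcr4 lies below 0 and the other receptors above 0 under all 17 alternatives, and total counts alone moves every receptor downward.

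Of 18 other chemokine receptors, 12 could be tested, with 7 log2 fold changes above 0 and 5 below and a median of 0.11 (-0.65 with total counts alone). At an adjusted p below 0.05, 1 was higher and 2 were lower, beside 10.4% and 3.69% of all tested genes, so the 1 higher is no more than the background share. Xcr1, the receptor of cross-presenting dendritic cells, rose from 1.19 ± 0.315 to 3.36 ± 1.26 CPM (log2 fold change 1.48, SE 0.29, adjusted p = 0.00485). Cxcr5, which guides B cells to follicles, fell from 53.7 ± 6.53 to 37.5 ± 7.96 CPM (log2 fold change -0.51, adjusted p = 0.0356). Ccr6, also carried by B cells, fell from 11.5 ± 1.63 to 7.20 ± 2.26 CPM (log2 fold change -0.65, adjusted p = 0.0405). Cx3cr1, the receptor of patrolling monocytes, was at 7.17 ± 1.72 and 8.90 ± 3.68 CPM (adjusted p = 0.436).

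**Figure D5:**
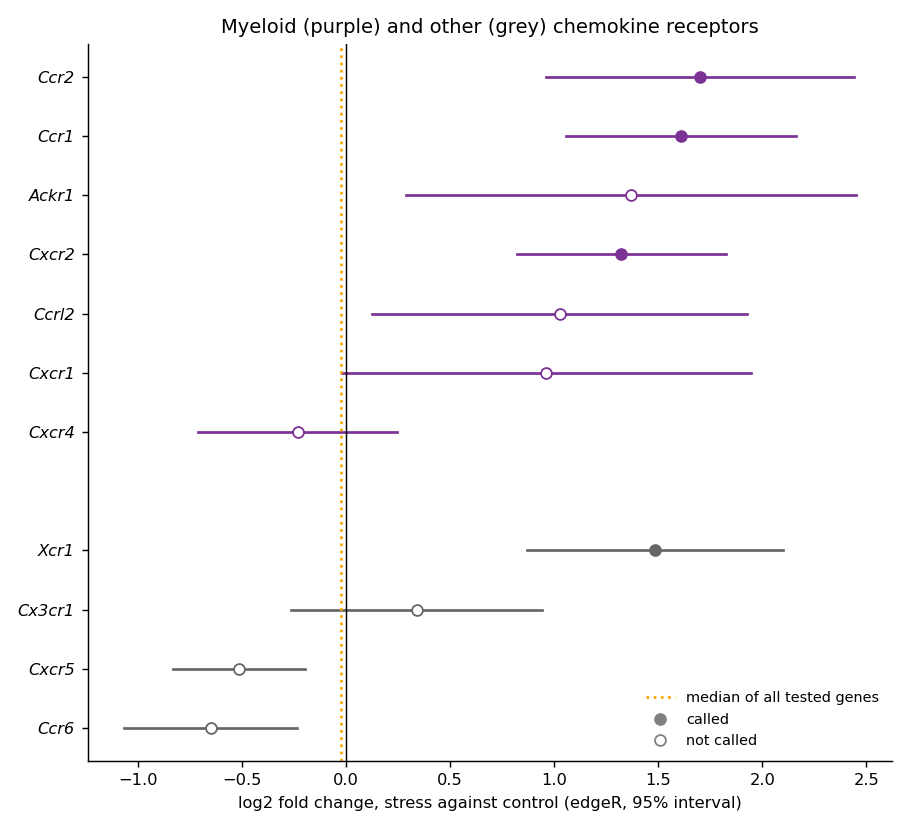
Log2 fold change (stress over control) with its 95% interval for the 7 receptors (purple) and for Xcr1, Cx3cr1, Cxcr5 and Ccr6 (grey). The intervals of Ccr2, Ccr1, Cxcr2 and Xcr1 lie furthest above 0, that of Cxcr4 (-0.71 to 0.24) spans 0, and those of Cxcr5 and Ccr6 lie below it.

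Of 24 ligands of these receptors, 5 had no count in any sample and 10 could be tested, of which 4 were higher and 0 lower at an adjusted p below 0.05, beside 10.4% and 3.69% of all tested genes. Their median was 0.70 on the log2 scale (-0.0832 with total counts alone). Ccl9 and Ccl6, ligands of Ccr1, rose from 4.45 ± 0.685 to 10.8 ± 3.70 CPM (log2 fold change 1.29, adjusted p = 0.00341) and from 36.7 ± 8.34 to 66.2 ± 5.64 CPM (0.86, adjusted p = 0.00351). Ppbp, a platelet precursor of Cxcr2 ligands, rose from 499.2 ± 107.5 to 989.9 ± 111.9 CPM (0.99, adjusted p = 0.00707), and Pf4, another platelet chemokine, rose from 209.8 ± 46.0 to 425.4 ± 96.3 CPM (1.02, adjusted p = 0.00563). The 10 platelet markers tested were likewise all higher. Cxcl1 and Cxcl2 had 0 to 4 counts in every sample, Cxcl12 2 to 23, and Ccl2 and Ccl7 none.

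Of 33 genes that carry or end the receptor signal, 10 were higher and 1 lower at an adjusted p below 0.05, beside 10.4% and 3.69% of all tested genes. Their median was 0.06 on the log2 scale (-0.72 with total counts alone). Those higher included Gnaq, a G protein alpha subunit (log2 fold change 0.92, adjusted p = 0.0011), Rgs2, which speeds G protein shut-off (0.74, adjusted p = 0.00126), and Rac1, a GTPase of cell movement (0.86, adjusted p = 0.00322). Pik3r6, a regulatory subunit of PI3K gamma, was the only one called (1.012, adjusted p = 0.00975). Arrb1 and Arrb2, the arrestins that uncouple these receptors, were higher by 0.57 and 0.49 (adjusted p = 0.0227 and 0.0229, named after their values were seen), and Plcb2, a phospholipase downstream of Gi, was lower at -0.41 (adjusted p = 0.0436).

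The genes whose levels followed each receptor most closely over the 8 samples were found by the root mean square difference of centred log2 CPM among 8539 genes, as a description. Nearest to Cxcr2 were Clec4e (0.152), Gcnt2 (0.157) and C5ar1 (0.165), and nearest to Ccr1 were Bst1 (0.159), Hdc (0.187) and Il1f9 (0.188). Nearest to Cxcr4 was Tsc22d3 (0.166), then Mfsd10 (0.170) and Rdh11 (0.179). Tsc22d3 is a transcript induced by glucocorticoids, and its log2 fold change in these samples was -0.10. Whether it was induced in any cell type was not tested. Nearest to Ccr2 were C3 (0.307), Cd177 (0.313) and Ccl9 (0.332), and nearest to Ackr1 was Afap1l1 (0.610). This distance grows with the spread of the receptor's own profile, whose SD was 0.824 for Cxcr2, 0.977 for Ccr1, 0.416 for Cxcr4, 1.04 for Ccr2 and 1.24 for Ackr1, so distances are not compared between receptors.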

How the data were processed

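RNA-seq libraries (TruSeq kit, NovaSeq instrument) of whole blood were analysed from raw counts per gene deposited by the authors. The submitters' processing notes name HISAT2, featureCounts and mm10. Versions, annotation, strand setting and pair counting are not given in the sources used here, so reads of overlapping genes (Ackr1 and Cadm3) and of close paralogs may be shared. The members and gene lists were chosen with earlier results of these data known, and the motifs after the sequences were seen. A gene entered the tests with 10 or more counts in 4 or more samples (11718 of 21878). Samples were grouped by their labels, and stress was compared with control in edgeR 4.0.16 (R 4.3.3) with TMM factors, robust quasi-likelihood tests and Benjamini-Hochberg adjustment. A call needed a log2 fold change above 1 in size and an adjusted p below 0.01. Ratios used log2 CPM with a prior count of 2 and a two-sided exact permutation test over samples. The text names the 7 receptors, every called gene of the chemokine lists and up to 3 per direction with the smallest p, Xcr1 and Cx3cr1, up to 2 genes per marker list, and the 3 nearest profiles among genes of mean count 100 or more. A further gene of this rule is not reported here. Log2 CPM was centred on each gene's mean for the latter. Promoters are RefSeq sequences, and gene positions come from GENCODE M21 on GRCm38. Alternatives were other scalings, DESeq2 1.42.0, limma 3.58.1 voom, other count filters, a replicate block and fits without 1 sample. The scripts were tested on simulated data.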

Additional observations from a re-analysis of the deposited data

Results flagged for a closer look

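Of 38 groups of 4 samples examined, 5 held a sample far from the others, and chance flags about 1 in 20 groups. Ccr2 was at 16.9 CPM in control replicate 3, above the other controls. Ackr1 was at 13.1 CPM in control replicate 1, above the other controls, and at 7.51 CPM in stress replicate 3, below the other stress samples. The log2 ratio of Ccr1 to the neutrophil markers was 0.24 in control replicate 3, below the other controls, and that of Ccrl2 was -3.91 in control replicate 4, also below the others.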

How the results depend on the processing

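Over 17 alternatives Cxcr4 stayed below 0 and the other 6 receptors above 0. Cxcr2 had an adjusted p below 0.01 in 12 of them, Ccr1 in 14 and Ccr2 in 5. The number of receptors called higher, 3, was 0 with total counts alone and 0 without a count filter, and 0 to 3 with 1 sample left out. Over all genes, 198 were called higher, against 14 with total counts alone, 307 with DESeq2, 337 at an adjusted p below 0.05 and 76 to 340 with 1 sample left out (76 without control replicate 2, 340 without control replicate 4). The 2 genes called lower became 4 with upper quartile scaling, 728 with total counts alone, 12 with DESeq2, 4 without a filter, 20 at an adjusted p below 0.05 and 1 to 8 with 1 sample left out. Total counts alone gave log2 fold changes of 0.67, 0.94, 0.96 and -1.08 for Cxcr2, Ccr1, Ccr2 and Cxcr4, and list medians of -0.65, -0.0832 and -0.72 for other receptors, ligands and signalling genes. Without a filter Cxcr2, Ccr1 and Ccr2 were at 1.32, 1.61 and 1.70 with adjusted p-values of 0.0131, 0.0146 and 0.0672. Ccr2 was at 1.68 with upper quartile scaling and 1.54 with limma-voom, both above an adjusted p of 0.01. With 1 sample left out the ranges were 1.12 to 1.49 for Cxcr2, 1.40 to 1.85 for Ccr1, 1.44 to 2.01 for Ccr2, 1.07 to 2.27 for Ackr1 and -0.37 to -0.03 for Cxcr4. The ratio of Cxcr2 to neutrophil markers turned to -0.0119 with a prior count of 0.5 and -0.31 against the median marker, and ran from -0.14 to 0.14 with 1 sample left out. That of Ccr1 was -0.0192 against the median marker and 0.15 to 0.40 with 1 sample left out. The cause of these shifts was not tested.

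Same-numbered samples did not deviate together (correlations of 0.0888, 0.0592, -0.0914 and -0.303 over 8539 genes), and not every sample correlated best with its own number, so the numbers were not taken to pair samples. With a replicate block, 189 genes were called higher and 1 lower, and Ccr2 was at 1.55 with an adjusted p of 0.0502.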

Other observations

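Among the remaining marker lists, 4 of 10 nonclassical monocyte markers were lower and 0 higher at an adjusted p below 0.05 (edgeR, median log2 fold change -0.43). At that threshold, 10.4% of the 11718 genes tested were higher and 3.69% lower. Of 8 dendritic cell markers 3 were higher, among them Xcr1 named above, and 0 were lower, with Siglech at a log2 fold change of -0.98. Of 8 NK cell markers 0 passed in either direction. Of 4 eosinophil and basophil markers tested, 1 was higher (Siglecf, log2 fold change 1.12) and 1 lower (Il5ra, -0.80). In lists this short, 0 or 1 passing gene in a direction says little beside those shares.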
